A study of Mus musculus with 9 samples.

Results

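The myosin heavy chain genes Myh6, Myh7 and Myh7b and the ventricular light chain genes Myl2 and Myl3 were followed through RNA sequencing of mouse heart. Members were the rows of the count table whose Ensembl identifier maps to these symbols, which gave 5 of 55401 genes (ENSMUSG00000040752 for Myh6, ENSMUSG00000053093 for Myh7, ENSMUSG00000074652 for Myh7b, ENSMUSG00000013936 for Myl2 and ENSMUSG00000059741 for Myl3). All 5 had enough counts to be tested. The series concerns the deubiquitinase JOSD2, the calcium pump SERCA2a and cardiac hypertrophy, and it holds 9 heart libraries of C57BL/6 mice, an inbred laboratory strain. Ctrl libraries are labelled with PBS (buffered saline) as treatment and Ang II libraries with Ang II, the pressor hormone angiotensin II. Kmo+Ang II libraries carry the same treatment entry, Ang II, and the labels do not say what Kmo is; no age, dose or duration is given in the sources used here. Each label has 3 libraries.

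Sample titles begin with the letters WC, WA or KKA, which the labels do not explain and which cross the treatment labels. WC stands on Ctrl replicate 1 and Ang II replicates 1 and 2, WA on Ctrl replicates 2 and 3 and Ang II replicate 3, and KKA on the 3 Kmo+Ang II libraries, so that KKA and Kmo+Ang II cannot be told apart. Both groupings are therefore described. No label says whether each library is its own animal, and every p-value below measures only the spread between these libraries, which may be technical.

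Sarcomeric myosin is the motor of the thick filament, built from a pair of heavy chains, each carrying an essential and a regulatory light chain on its neck. In the adult mouse ventricle the fast alpha heavy chain (Myh6) prevails, while the slow beta heavy chain (Myh7) is the fetal form, and a rise of Myh7 against Myh6 is a textbook marker of pathological hypertrophy. Myh7b is an ancient relative expressed at low levels in heart and slow muscle, Myl2 encodes the ventricular regulatory light chain and Myl3 the ventricular essential light chain.

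Each heavy chain gene carries a microRNA in an intron on its own strand, and the 3 mature sequences are shown because their own rows are counted below beside those of their hosts. They were taken from RefSeq (GRCm38.p6) and the capitals mark the seed, bases 2 to 8.
mmu-miR-208a-3p, host Myh6, chr14:54949072-54949093, minus strand: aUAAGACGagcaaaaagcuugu
mmu-miR-208b-3p, host Myh7, chr14:54975710-54975731, minus strand: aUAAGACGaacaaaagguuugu
mmu-miR-499-5p, host Myh7b, chr2:155622893-155622913, plus strand: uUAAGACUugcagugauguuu
The first and the second share all 7 seed bases and 19 of 22 bases in all, whereas the seed of miR-499-5p matches in 6 of 7 positions.

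Myh6 and Myh7 lie next to each other on one strand of chromosome 14, and Myl3 lies on chromosome 9. The 250 bases before the listed start of these 3 genes are shown because Myh6 and Myh7 form the ratio described below and Myl3 is the member that passed a test. They are RefSeq sequences of GRCm38.p6, and capitals mark matches on either strand to CATTCC, the M-CAT core, or to the CArG box, the binding motif of serum response factor.
Myh6, chr14:54966608-54966857, minus strand: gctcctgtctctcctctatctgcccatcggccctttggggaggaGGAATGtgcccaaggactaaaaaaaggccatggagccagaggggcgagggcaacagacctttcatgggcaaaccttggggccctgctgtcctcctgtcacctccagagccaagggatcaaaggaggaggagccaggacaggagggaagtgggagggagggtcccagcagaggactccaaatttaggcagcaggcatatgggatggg
Myh7, first of 2 listed starts, chr14:54994627-54994876, minus strand: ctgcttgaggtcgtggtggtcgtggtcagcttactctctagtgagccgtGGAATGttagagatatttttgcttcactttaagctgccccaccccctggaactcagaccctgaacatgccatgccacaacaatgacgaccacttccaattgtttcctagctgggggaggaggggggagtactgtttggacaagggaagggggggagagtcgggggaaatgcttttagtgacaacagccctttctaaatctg
Myl3, chr9:110763428-110763677, plus strand: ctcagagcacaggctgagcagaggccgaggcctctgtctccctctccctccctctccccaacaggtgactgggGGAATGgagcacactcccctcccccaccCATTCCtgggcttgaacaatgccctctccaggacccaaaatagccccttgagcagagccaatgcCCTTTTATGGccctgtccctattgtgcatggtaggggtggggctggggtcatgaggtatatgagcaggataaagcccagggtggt
CATTCC stands 1 time before Myh6, 1 time before the first Myh7 start and 2 times before Myl3, and 12.6% of 32851 listed promoters of this length hold it. The window before the second Myh7 start, not shown, has 0 matches to CATTCC. The CArG box stands 1 time before Myl3 and in 1.47% of promoters. TATAAA (12.4% of promoters) and the MEF2 box (2.92%) have no match in these 3 windows, nor has AGGTCA (14.0%), and CANNTG (66.2%) has 1 match in each. No matches to different motifs overlapped, and a match describes letters only.

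Total counts ranged from 56827533 to 73194268 per library. Mitochondrially encoded genes took 30.3% to 55.5% of them and the 5 myosin genes 0.901% to 3.07%, or 2.03% to 4.42% of the remaining counts. The lowest myosin share was that of Kmo+Ang II replicate 3, which also had the highest mitochondrial share. Heart muscle markers were present in every library: the 12 fixed cardiomyocyte genes summed to between 11067 and 44799 CPM (counts scaled by edgeR's TMM library size, the normalised count used throughout). Kmo+Ang II replicate 3 stood apart in its other cell markers, with 86.1 CPM over 6 epicardial genes against at most 18.5 CPM elsewhere and with 1950 CPM over 8 fibroblast genes against at most 864 CPM. Wt1 of the epicardial list did not follow, with 11.2 CPM there and 12.4, 11.95 and 14.4 CPM in WC (Ctrl 1, Ang II 1 and Ang II 2). The 4 haemoglobin genes summed to 2916 to 7249 CPM in WC and to 115 to 483 CPM in the other 6 libraries. Their part in the myosin values was not tested.

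Per kilobase of mRNA, the order of the medians over 9 libraries was Myl2 (6292 CPM per kb), Myh6 (2348), Myl3 (1565), Myh7 (158) and Myh7b (28.6). The ranges of Myl2 (2281 to 9500), Myh6 (1372 to 2674) and Myl3 (422 to 3568) overlapped, while Myh7 (94.9 to 252) and Myh7b (14.9 to 42.8) each lay below and apart. Within a gene, the highest library exceeded the lowest 1.95 times for Myh6, 2.66 times for Myh7, 2.88 times for Myh7b, 4.17 times for Myl2 and 8.46 times for Myl3. Without Kmo+Ang II replicate 3 these ratios were 1.74 for Myh6, 2.66 for Myh7, 2.88 for Myh7b, 2.15 for Myl2 and 3.88 for Myl3. That library thus widened the span of both light chains over 9 libraries, and Myl3 kept the widest span without it.

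**Figure D1:**
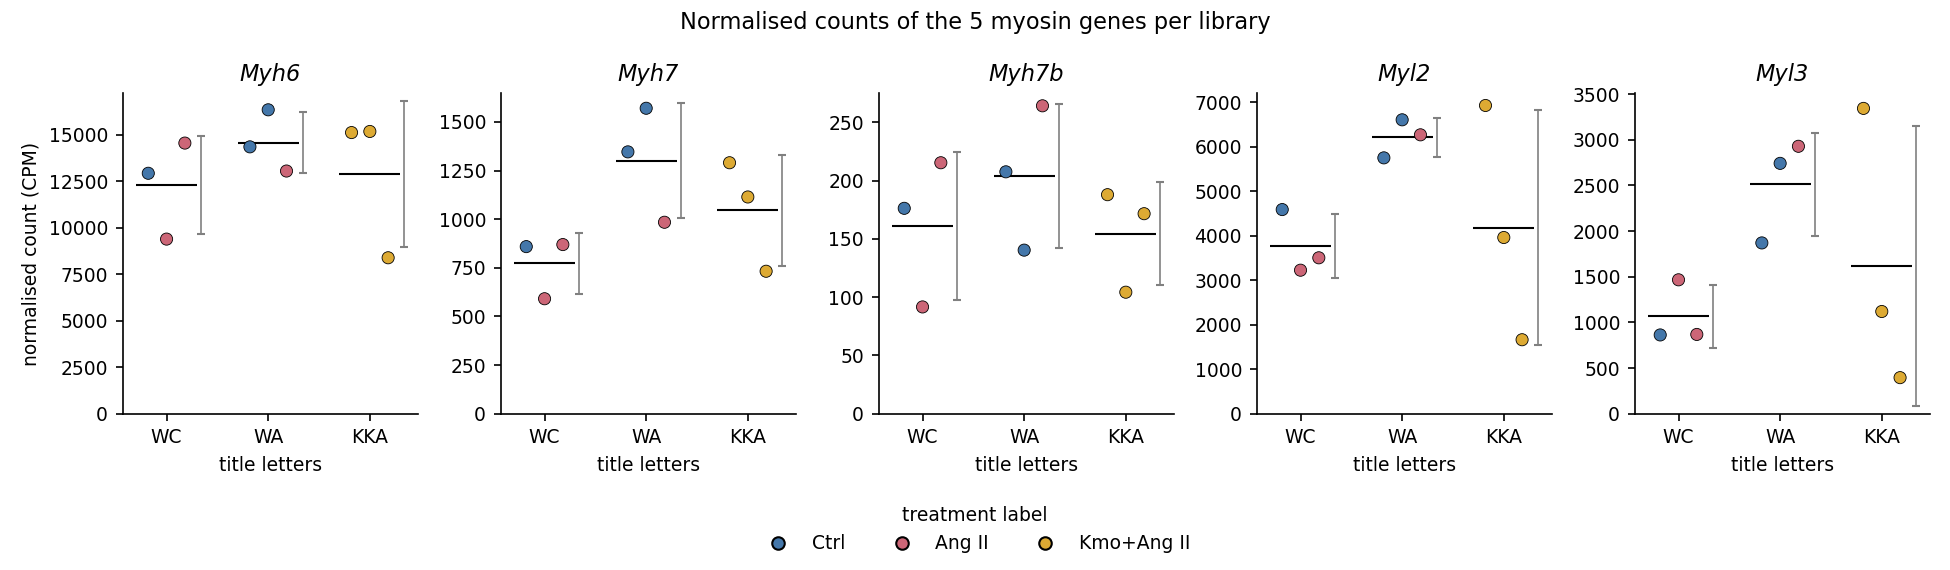
Normalised counts (CPM, linear axes from 0) of the 5 myosin genes in 9 libraries, grouped by title letters and coloured by treatment label; the horizontal line is the mean of 3 libraries and the grey bar 1 SD either side of it. Myl2 and Myl3 of all 3 WA libraries lie above all 3 WC libraries, and Kmo+Ang II replicate 3 is the lowest point for both.

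Myh6, the alpha heavy chain, was read at 12934, 9394 and 14559 CPM in WC (Ctrl 1, Ang II 1 and Ang II 2, an order kept for the other genes). It stood at 14356, 16348 and 13055 CPM in WA (Ctrl 2, Ctrl 3, Ang II 3) and at 15124, 15183 and 8390 CPM in KKA (Kmo+Ang II 1 to 3). All groups overlapped, and the lowest libraries were Kmo+Ang II 3 and Ang II 1. By treatment label the means were 14546 ± 1715 CPM in Ctrl, 12336 ± 2656 in Ang II and 12899 ± 3905 in Kmo+Ang II (SD, n = 3 each).

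Myh7, the beta heavy chain, had 859, 591 and 870 CPM in WC and 1346, 1571 and 984 CPM in WA. The KKA libraries had 1291, 1114 and 733 CPM. All WA libraries were above all WC libraries, and by treatment label the groups overlapped. The mean was 1259 ± 364 CPM in Ctrl, 815 ± 202 in Ang II and 1046 ± 285 in Kmo+Ang II (SD, n = 3 each). Ang II minus Ctrl was -0.63 ± 0.38 on the log2 scale (SE, edgeR adjusted p = 0.890).

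The Myh7 share of Myh6 plus Myh7 counts needs no scaling between libraries. It was 6.23%, 5.92% and 5.64% in WC, 8.57%, 8.77% and 7.01% in WA, and 7.86%, 6.84% and 8.03% in KKA. Exact binomial 95% intervals were narrow, for example 6.18% to 6.28% in Ctrl replicate 1, and cover counting error only. Every WC library was below every WA and every KKA library, and WA and KKA overlapped. The share was 2.19 percentage points higher in WA (8.12% ± 0.96, SD, n = 3) than in WC (5.93% ± 0.30), with a two-sided exact permutation p of 0.1, the smallest that 3 against 3 allows, and 0.3 after Benjamini-Hochberg adjustment over 6 comparisons. KKA (7.58% ± 0.65) exceeded WC by 1.65 points, with the same exact p of 0.1 (adjusted 0.3).

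By treatment label the share was 7.86% ± 1.41 in Ctrl, 6.19% ± 0.73 in Ang II and 7.58% ± 0.65 in Kmo+Ang II (SD, n = 3 each). Ang II minus Ctrl was -1.67 points with overlap (exact permutation p = 0.2, adjusted 0.3). Within the title letters, Ang II minus Ctrl was -1.66 points in WA, where 2 Ctrl libraries stand beside 1 Ang II library, and -0.45 points in WC, where 1 Ctrl library stands beside 2 Ang II libraries. The mean of both was -1.05 points, and with labels exchanged only inside each letter, a test chosen after seeing the data, the two-sided exact permutation p was 0.222, the smallest that the 9 arrangements allow. Kmo+Ang II minus Ang II was 1.39 points (exact permutation p = 0.2, adjusted 0.3), and Kmo+Ang II minus Ctrl was -0.28 points (exact permutation p = 0.7). No comparison placed the Myh7 share of the Ang II hearts above that of the Ctrl hearts.

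**Figure D2:**
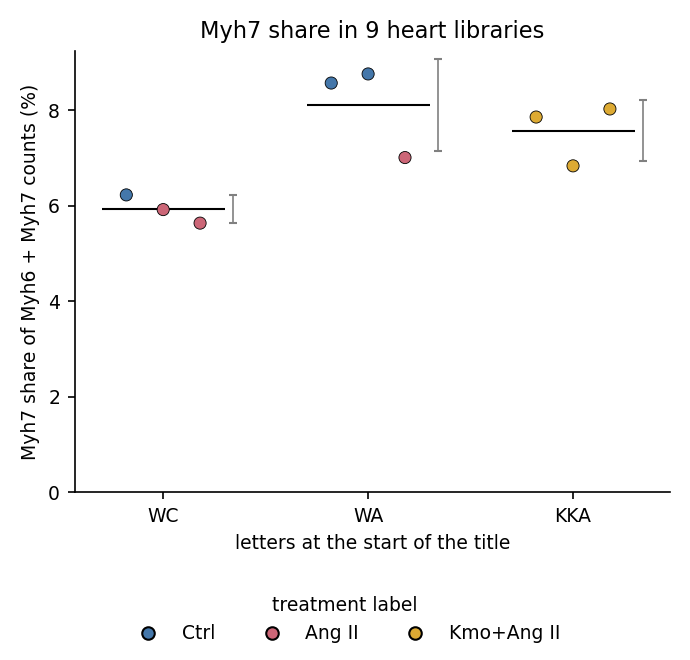
Myh7 as a percentage of Myh6 plus Myh7 raw counts in each of 9 libraries, by title letters and coloured by treatment label, with the mean (line) and 1 SD either side (grey bar) of 3 libraries. The WC libraries lie between 5.64% and 6.23%, below the 7.01% to 8.77% of WA and the 6.84% to 8.03% of KKA.

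The share rests on telling near-identical genes apart. The coding sequences of Myh7 and Myh6 matched in 91.7% of 5802 aligned bases in GENCODE vM21 transcripts, and 22.2% of 50-base and 11.2% of 100-base windows of the Myh7 mRNA occur unaltered in Myh6. How shared reads were assigned is not given in the sources used here, so the absolute share is uncertain. Dividing by coding length (5814 bases for Myh6, 5805 for Myh7) moved Ctrl replicate 1 only from 6.23% to 6.24%. Myh7b has no 50-base window in common with either gene (0% of windows).

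Myh7b, the heavy chain of low level, had 176, 91.6 and 215 CPM in WC, 207, 140 and 264 CPM in WA and 188, 104 and 172 CPM in KKA. All groups overlapped. Against 100 counts of Myh6 plus Myh7 there were 0.64 to 1.88 Myh7b counts, the lowest in Kmo+Ang II 2 and the highest in Ang II 3 and Kmo+Ang II 3. The remaining sarcomeric heavy chain genes of the fixed list (Myh1, Myh2, Myh3, Myh4, Myh8, Myh13 and Myh15, skeletal, developmental and specialised forms) summed to 0.046 to 0.79 CPM, and 0 of 7 had enough counts to be tested.

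Myl2, the ventricular regulatory light chain, was at 4587, 3225 and 3503 CPM in WC and at 5749, 6604 and 6266 CPM in WA. In KKA it was at 6925, 3959 and 1663 CPM. WA lay wholly above WC, and the KKA libraries spanned both ranges and fell below them. By treatment label the means were 5646 ± 1012 CPM in Ctrl, 4331 ± 1681 in Ang II and 4182 ± 2639 in Kmo+Ang II (SD, n = 3 each), with overlap throughout.

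Myl3, the ventricular essential light chain, had 863, 1466 and 868 CPM in WC and 1870, 2741 and 2928 CPM in WA. KKA had the highest and the lowest library of the series, with 3343, 1119 and 395 CPM. WA was again wholly above WC. The treatment means were close, at 1825 ± 940 CPM in Ctrl, 1754 ± 1060 in Ang II and 1619 ± 1536 in Kmo+Ang II (SD, n = 3 each), since each label mixes high and low libraries. Myl3 made up 15.8% to 32.6% of Myl2 plus Myl3 counts, the lowest in Ctrl 1 and the highest in Kmo+Ang II 1, and the groups of every comparison overlapped in it.

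No myosin gene passed the test (adjusted p under 0.05) by treatment label. Called genes were 0% of the 19091 tested in Ang II minus Ctrl, 0% in Kmo+Ang II minus Ang II and 0% in Kmo+Ang II minus Ctrl with edgeR, where 1003, 412 and 533 genes had an unadjusted p under 0.05 and DESeq2 called 8, 3 and 9. Ang II minus Ctrl was -0.24 ± 0.40 for Myh6, 0.12 ± 0.40 for Myh7b, -0.38 ± 0.52 for Myl2 and -0.06 ± 0.75 for Myl3 (log2, SE, edgeR adjusted p 0.946 to 0.994). The median of the 5 was -0.24 beside 0.02 for all genes. These signs depend on the scaling: with library size alone the median gene moved by 0.65, and Myh6 (0.41), Myh7 (0.03), Myl2 (0.27) and Myl3 (0.62) turned positive.

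Kmo+Ang II minus Ang II was 0.06 ± 0.40 for Myh6, 0.36 ± 0.38 for Myh7, -0.30 ± 0.40 for Myh7b, -0.05 ± 0.52 for Myl2 and -0.12 ± 0.75 for Myl3 (log2, SE, edgeR adjusted p 0.9998 for each). Kmo+Ang II minus Ctrl ranged from -0.43 ± 0.52 for Myl2 to -0.17 ± 0.75 for Myl3 (edgeR adjusted p = 0.998). Both comparisons with Ctrl share the same Ctrl libraries. Groups without overlap occurred for 0 of 5 myosin genes in each treatment comparison, against 12.2% of all genes in Ang II minus Ctrl, 6.17% in Kmo+Ang II minus Ang II and 6.77% in Kmo+Ang II minus Ctrl. For the light chains, leaving out Kmo+Ang II replicate 3 changed the difference from Ang II to 0.33 for Myl2 and 0.35 for Myl3. Leaving out Kmo+Ang II replicate 1 instead changed it to -0.63 for Myl2 and -1.21 for Myl3.

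Sorting by title letters separated 3 of 5 myosin genes. Myh7, Myl2 and Myl3 were higher in all WA than in all WC libraries, as were 16.5% of all genes, and 33.6% of all genes did not overlap in either direction. In the fit of all 9 libraries, the log2 difference WA minus WC was 0.25 ± 0.44 for Myh6, 0.75 ± 0.35 for Myh7, 0.34 ± 0.37 for Myh7b, 0.72 ± 0.50 for Myl2 and 1.24 ± 0.64 for Myl3 (SE). No member was called there (edgeR adjusted p 0.290 to 0.792), in a comparison where 0% of genes were called, 3443 had an unadjusted p under 0.05 and DESeq2 called 514.

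When only the 6 WA and WC libraries were fitted, the common dispersion was 0.088 in place of 0.156, and 13.3% of 18111 genes were called (1459 higher in WA and 950 lower). Myl3 rose, by 1.25 ± 0.31 on the log2 scale (SE, edgeR adjusted p = 0.0219), and it was the 1 member of 5 called. Myh7 had 0.76 ± 0.26 (adjusted p = 0.0769), Myl2 0.73 ± 0.29 (adjusted p = 0.117), Myh7b 0.36 ± 0.32 (adjusted p = 0.499) and Myh6 0.26 ± 0.34 (adjusted p = 0.659) in the same edgeR fit. DESeq2 called 3 of 5 (Myl3, Myl2 and Myh7, with adjusted p 2.42e-05, 0.00167 and 0.00795), where it called 19% of all genes. The median of the 5 was 0.73 beside -0.01 for all genes.

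The Myl3 call was lost with library size as the only scaling (0.93, edgeR adjusted p = 0.277) and when Ctrl replicate 1 (1.12, 0.104), Ctrl replicate 3 (1.19, 0.0948) or Ang II replicate 2 (1.12, 0.114) was left out. It stood with the treatment label as a covariate (1.39, edgeR adjusted p = 0.0179). Without Ang II replicate 3 Myh7 was called (0.94, edgeR adjusted p = 0.0349), in a fit that called 15.9% of genes. Myh6 had the opposite sign with library size as the only scaling (-0.06).

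KKA overlapped with WA and with WC for all 5 myosin genes, while 8.18% of all genes in KKA minus WA and 7.59% in KKA minus WC did not overlap. KKA minus WA was -0.18 ± 0.44 for Myh6, -0.31 ± 0.35 for Myh7, -0.40 ± 0.37 for Myh7b, -0.57 ± 0.50 for Myl2 and -0.63 ± 0.63 for Myl3, and KKA minus WC ranged from -0.06 ± 0.37 for Myh7b to 0.60 ± 0.63 for Myl3 (log2, SE). Called genes were 0% in both comparisons, where edgeR gave 1345 and 671 genes an unadjusted p under 0.05 and DESeq2 called 91 and 25. Without Kmo+Ang II replicate 1, Myl3 was lower in KKA than in WA by -1.73 (edgeR adjusted p = 0.0485), in a fit that called 8.66% of genes.

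**Figure D3:**
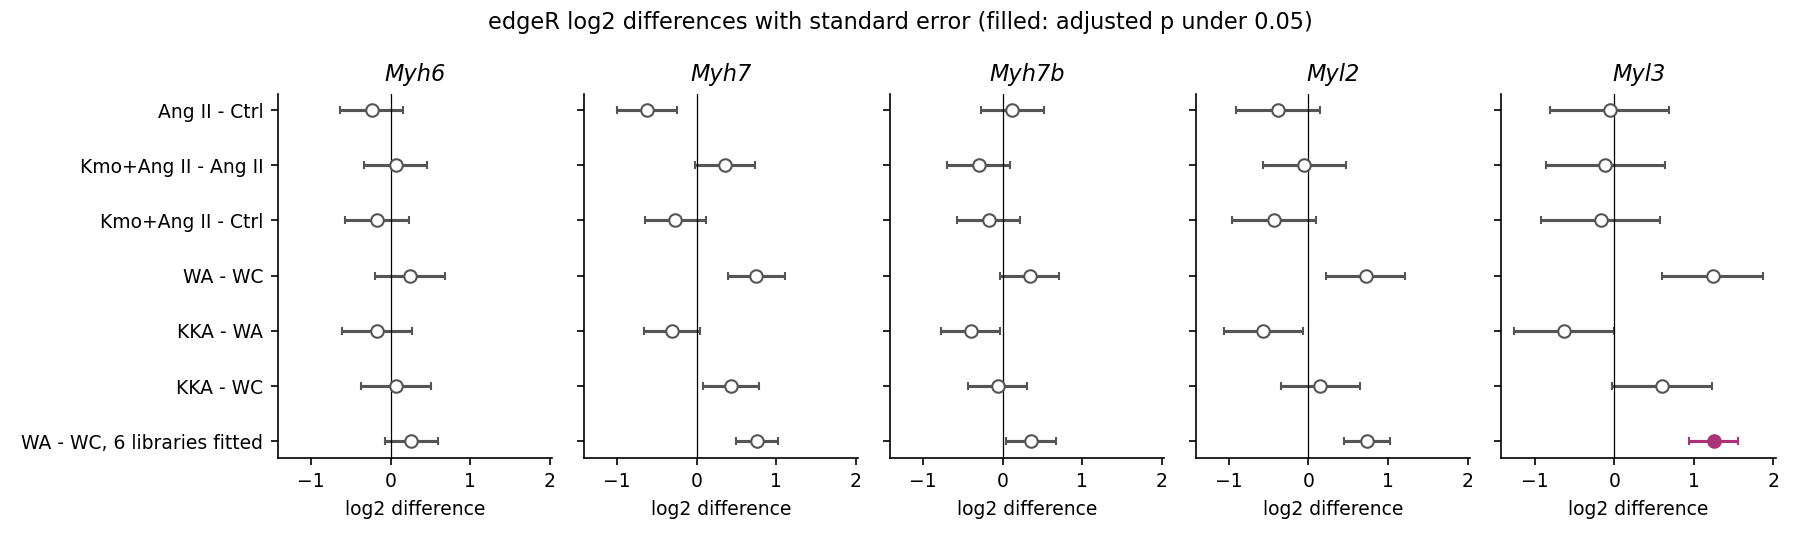
Log2 differences (edgeR, horizontal axis) of each myosin gene in 7 comparisons, with bars of 1 standard error and filled points where the adjusted p is under 0.05. The only filled point is Myl3 in WA minus WC with 6 libraries fitted, at 1.25.

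Atrial muscle uses other light chains, which were compared with the ventricular ones inside each library. Myl7, the atrial regulatory light chain, made up 22.0% of Myl2 plus Myl7 counts in Kmo+Ang II replicate 3 and 0.823% in Ctrl replicate 2, and at most 0.0216% in the other 7 libraries. Myl4, the atrial essential light chain, made up 49.3% of Myl3 plus Myl4 counts in Kmo+Ang II replicate 3, 3.37% in Ctrl replicate 2 and at most 0.334% elsewhere. Ang II replicate 3 had 0 Myl7 counts among 506236, with an exact 95% upper limit of 0.000729%. Sln, the atrial regulator of the calcium pump, followed the same libraries, with 289 CPM in Kmo+Ang II replicate 3, 35.0 CPM in Ctrl replicate 2 and at most 0.488 CPM elsewhere. The library with the lowest Myl2 and Myl3 is thus the one with the largest atrial light chain shares, and fewer ventricular cells and less of their RNA per cell cannot be told apart in bulk tissue. Without Ctrl replicate 2, Myl3 in WA minus WC (6 libraries) was 1.43 (edgeR adjusted p = 0.0396).

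Myl1, the essential light chain of fast skeletal muscle, rose with Myl3 in WA. It had 19.5, 16.5 and 13.5 CPM in WC and 94.2, 72.6 and 38.4 CPM in WA. KKA had 111, 18.5 and 77.6 CPM. The difference WA minus WC in 6 libraries was 2.06 ± 0.30 (log2, SE, edgeR adjusted p = 0.00418), and Myl1 was the 1 called gene of 4 tested in the list of other sarcomeric light chains. Of 9 smooth muscle and nonmuscle myosin genes 1 rose, Myl12a, a regulatory light chain of nonmuscle myosin (1.74 ± 0.23, edgeR adjusted p = 0.00265), and the median of that list was 0.21 beside -0.01 for all genes. With 8.06% of all genes called higher in that fit, 1 of 9 is near the background.

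Thick filament partners and light chain kinases held 4 higher and 0 lower calls among 16 tested genes in WA minus WC (6 libraries), where 8.06% of all genes were called higher and 5.25% lower, with a median of 0.55. They were Mybpc2, the fast form of myosin-binding protein C (2.12 ± 0.34, edgeR adjusted p = 0.00530), the M-band proteins Myom1 (1.24 ± 0.21, 0.00596) and Myom2 (1.42 ± 0.27, 0.00807), and Ppp1cb, the catalytic subunit of myosin phosphatase (0.91 ± 0.19, 0.0130). Mybpc3, the cardiac form of myosin-binding protein C, had 0.66 ± 0.24 (edgeR adjusted p = 0.0892). Among 26 tested transcription factors and receptors that act on cardiac myosin genes, 2 rose and 0 fell: Tbx20, a T-box factor of the heart (1.47 ± 0.22, edgeR adjusted p = 0.00405), and Srf, serum response factor (0.94 ± 0.22, 0.0181). That count is near the 8.06% of all genes called higher, and the median of the list was 0.07 beside -0.01 for all genes. In the 6 comparisons of the 9-library fits, edgeR called 0 genes of these lists.

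Markers of heart muscle itself moved the same way. In WA minus WC (6 libraries), 8.06% of all genes were called higher and 5.25% lower. Of 12 cardiomyocyte genes, 8 were higher and 0 lower in that fit, with a median of 1.13; Actc1, cardiac alpha-actin, rose by 2.31 ± 0.30 (log2, SE, edgeR adjusted p = 0.00242). Fibroblast markers had 4 of 8 higher, macrophage markers 2 of 7 lower, neutrophil markers 3 of 6 lower and haemoglobin genes 4 of 4 lower. The epicardial list had 1 of 6 lower (Wt1, -1.10), while 4 of its 6 genes had a positive difference and its median was 0.54. Atrial markers had 2 of 7 higher (Nppa and Myl1) and skeletal muscle markers 2 of 7 higher (Myl1 and Ckm, which the heart also expresses). Nppa did not follow atrial Myl7 in WA: Ctrl replicate 3 and Ang II replicate 3 had 1222 and 808 CPM of Nppa but 0.399 and 0 CPM of Myl7. Myl1, which stands in both lists, had 72.6 and 38.4 CPM in the same libraries. Counts of 1 or 2 in lists of 6 or 7 genes rest on few genes. The slow skeletal, endothelial, smooth muscle and pericyte, T and NK cell and adipocyte lists had 0 calls among 5, 7, 7, 6 and 4 tested genes in this edgeR fit. The part of these cell types in the myosin differences was not tested.

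Set against the mean log2 CPM of the 12 cardiomyocyte markers, the order changed. That marker mean was 0.98 higher in WA than in WC without overlap (exact permutation p = 0.1, the smallest possible). Relative to it, Myh6 stood at 3.41, 3.06 and 3.78 log2 units in WC and at 2.73, 2.62 and 2.73 in WA. Myh6 relative to the markers was thus 0.72 lower in WA (-0.72, no overlap, exact permutation p = 0.1). Because the marker mean is subtracted, a gene with unchanged CPM would fall by 0.98 on this scale. Without that subtraction, Myh6 was 0.26 higher in WA (log2, 6 libraries, edgeR adjusted p = 0.659). The share of all genes without overlap on the relative scale was not computed. For the other 4 genes the groups overlapped, with WA minus WC at -0.24 for Myh7, -0.60 for Myh7b, -0.25 for Myl2 and 0.27 for Myl3 on the same relative scale.

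**Figure D4:**
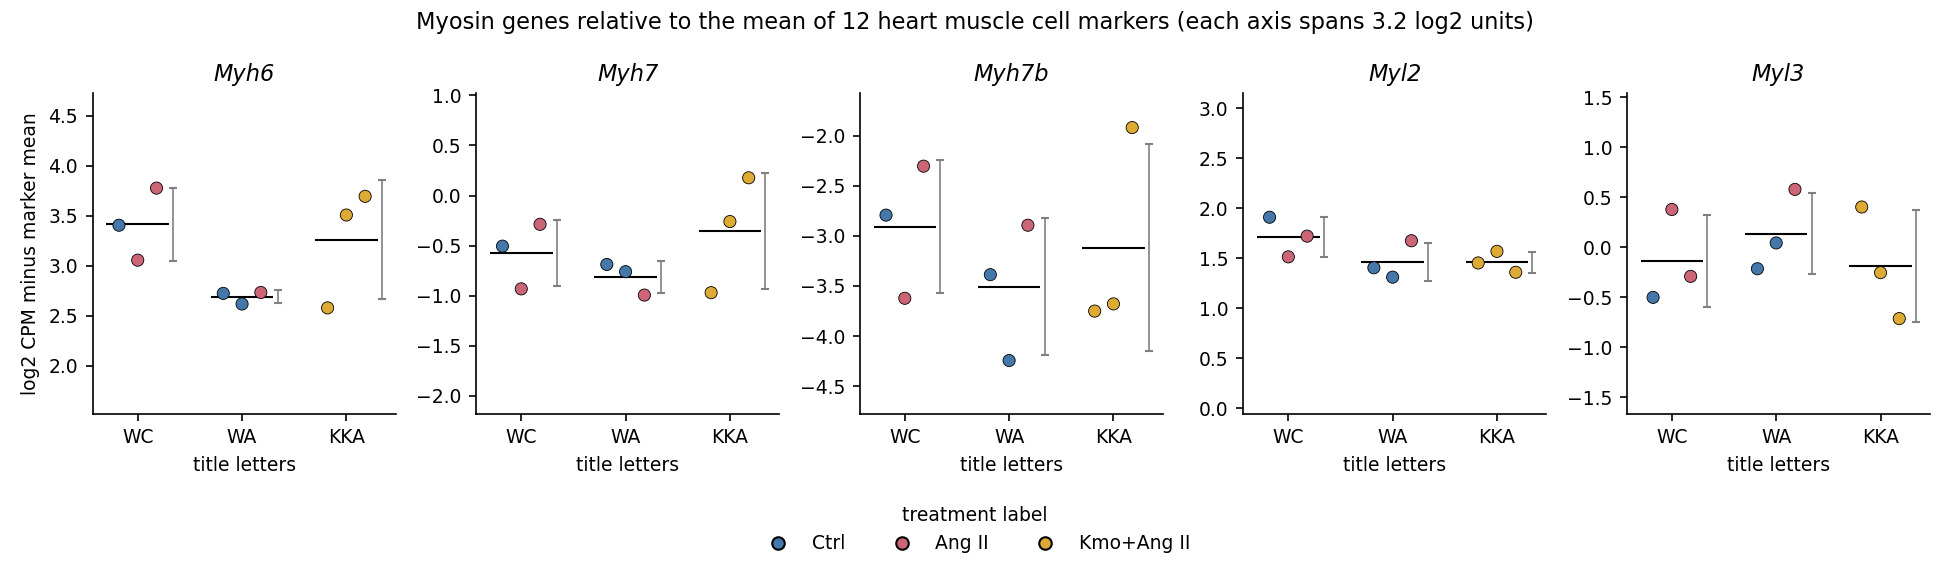
Log2 CPM of each myosin gene minus the mean log2 CPM of 12 cardiomyocyte markers in 9 libraries, by title letters and coloured by treatment label, with the mean (line) and 1 SD either side (grey bar); each vertical axis spans the same number of log2 units and does not start at 0. The WA points of Myh6 lie between 2.62 and 2.73, below all WC points.

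The Myh7 locus also yields a transcript from the opposite strand, Mhrt, a long noncoding RNA of adult heart muscle. It had 195, 148 and 255 CPM in WC and 130, 93.3 and 139 CPM in WA. KKA had 109, 145 and 129 CPM. All WC libraries were above the others, the reverse of the order of Myh7 between WC and WA. By CPM, 33.6% of all genes had no overlap in either direction in WA minus WC and 7.59% in KKA minus WC. Per 100 Myh7 counts there were 22.7, 25.0 and 29.4 Mhrt counts in WC, 9.66, 5.94 and 14.1 in WA and 8.41, 13.03 and 17.6 in KKA. WC thus did not overlap with WA (-15.8 for WA minus WC) or with KKA (-12.7 for KKA minus WC), each with an exact permutation p of 0.1 and 0.3 after adjustment over 6 comparisons.

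The edgeR difference of Mhrt in WA minus WC (6 libraries) was -0.71 ± 0.24 (log2, SE, adjusted p = 0.0749). The annotated span of Mhrt, introns included, covers 1296 exonic bases of Myh7. Which of these bases lie in Mhrt exons was not computed. No strand setting is stated, so reads of the 2 genes may be mixed where their exons coincide. Gm31251, chosen after its values were seen, is annotated inside Myh7 on the opposite strand, and its span covers 5190 bases of Myh7 exons. It had 60.5, 80.9 and 85.8 CPM in WC, 20.5, 17.96 and 34.04 CPM in WA and 32.3, 39.4 and 74.9 CPM in KKA. It fell by 1.63 ± 0.25 in WA against WC (edgeR adjusted p = 0.00407) with no overlap, opposite in sign to Myh7. In WA minus WC, 33.6% of all genes had no overlap in either direction, and 5.25% were called lower in the 6 libraries. The other genes annotated opposite to Myh7 did not share 1 direction. Gm29015, whose span covers 184 bases of Myh7 exons, had 17 to 82 raw counts per library. It had 0.337, 0.294 and 0.372 CPM in WC, 1.03, 0.747 and 0.755 CPM in WA and 0.406, 1.25 and 0.335 CPM in KKA. Its WA libraries were all above its WC libraries, and the difference was 1.34 ± 0.47 (log2, SE, edgeR adjusted p = 0.0811). Gm17428, whose span covers 0 bases of Myh7 exons, fell by 1.86 ± 0.38 (edgeR adjusted p = 0.0117).

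**Figure D5:**
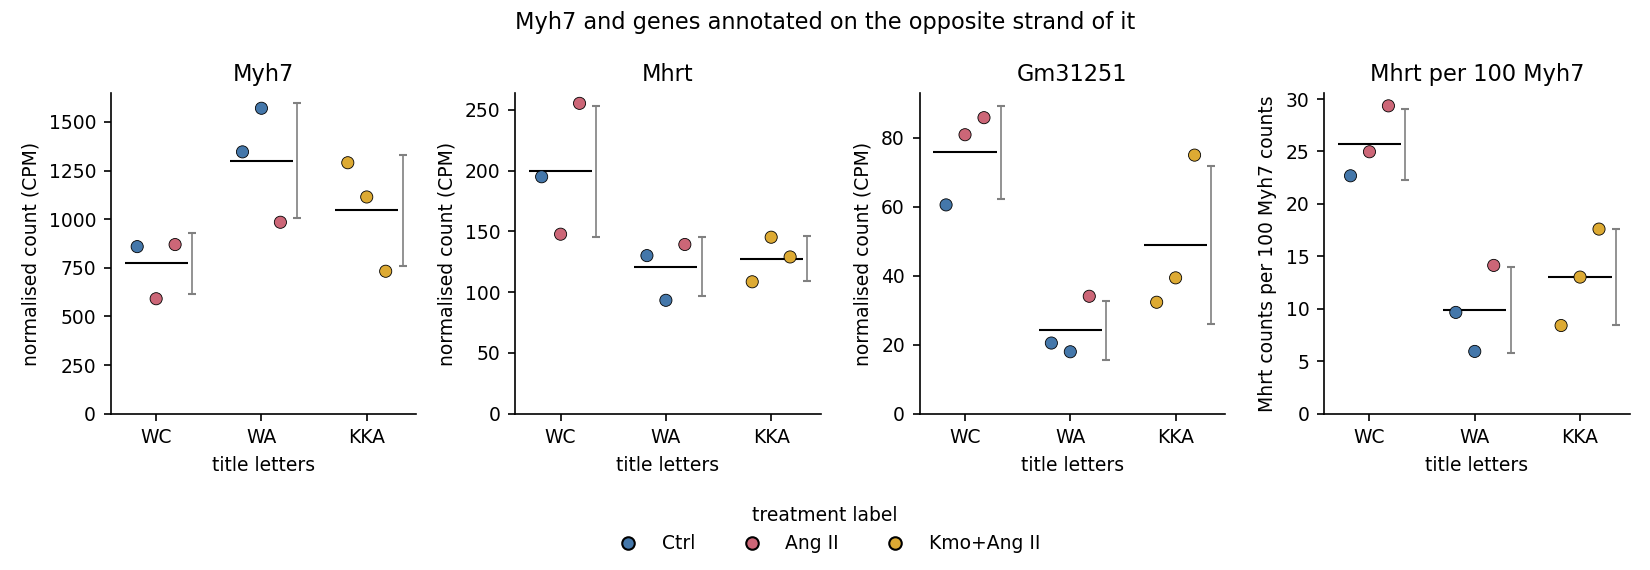
Normalised counts (CPM) of Myh7 and of Mhrt and Gm31251, annotated on its opposite strand, and Mhrt counts per 100 Myh7 counts, in 9 libraries by title letters and coloured by treatment label, with the mean (line) and 1 SD either side (grey bar). WC has the lowest mean of Myh7 and the highest ratios, at 22.7 to 29.4.

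The intronic microRNA genes shown at the start have rows of their own. Poly(A) selection does not retain mature microRNAs, so these rows do not measure them. Mir208b had 390, 979 and 628 raw counts in WC, 130, 166 and 774 in WA and 727, 436 and 287 in KKA. Per 1000 Myh7 counts this was 8.04, 2.30 and 1.84 in Ctrl 1 to 3, 19.5, 10.7 and 9.73 in Ang II 1 to 3 and 6.73, 5.97 and 7.73 in Kmo+Ang II 1 to 3. All Ang II libraries were above all others, a grouping by treatment label that the host gene did not show. By CPM, 12.2% of all genes had no overlap in either direction in Ang II minus Ctrl and 6.17% in Kmo+Ang II minus Ang II. The ratio was 13.3 ± 5.4 in Ang II, 4.06 ± 3.46 in Ctrl and 6.81 ± 0.88 in Kmo+Ang II (SD, n = 3 each), and both comparisons with Ang II had an exact permutation p of 0.1 (0.2 after adjustment over 6). In edgeR, Mir208b in Ang II minus Ctrl was 1.24 ± 0.35 (log2, SE, adjusted p = 0.890).

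Mir208a, inside Myh6, had only 12, 11 and 15 counts in Ctrl 1 to 3, 32, 42 and 52 in Ang II 1 to 3 and 97, 43 and 8 in Kmo+Ang II 1 to 3. Ang II exceeded Ctrl in every pair of libraries here too, in a comparison where 12.2% of all genes had no overlap by CPM. Per 1000 Myh6 counts the means were 0.044 ± 0.005 in Ang II and 0.017 ± 0.001 in Ctrl (SD, n = 3 each, exact permutation p = 0.1, adjusted 0.3). The edgeR difference was 1.16 ± 0.67 (log2, SE, adjusted p = 0.890). Mir499, inside Myh7b, was listed at 0 in all libraries, as was Myhas, an antisense gene of the skeletal myosin cluster.

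Genes whose log2 CPM ran most like each myosin gene were ranked by Pearson's r over the 9 libraries among 11206 genes, as a description of libraries that share tissue makeup and depth. Myl3 ran with the mitochondrial proteins Timm50 (r = 0.995), Ndufs3 (0.995) and Coq10a (0.992). Myl2 ran with Mgst3 (0.993), AW011738 (0.985) and Pgam2, the muscle phosphoglycerate mutase (0.981). Nearest to Myh6 were Prox1 (0.969), Cog1 (0.946) and Kctd21 (0.943), and among the nearest to Myh7 were Vwa8 (0.972) and Shroom3 (0.961). Myh7b had Akr1c14 (0.924), Itga6 (0.915) and Prdm1 (0.909), and the Myh7 share on the logit scale had Gnl3 (0.985), Clu (0.975) and Cetn3 (0.973). At the opposite end stood Mcm2 for Myh6 (-0.943), Dennd3 for Myh7 (-0.976), Rnf113a2 for Myh7b (-0.959), Nup155 for Myl2 (-0.981), Scarf2 for Myl3 (-0.993) and Zfp629 for the share (-0.983).

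Among themselves, Myh6, Myh7, Myl2 and Myl3 ran together over the 9 libraries, while Myh7b had at most r = 0.282 with any other. The values were 0.909 for Myl2 with Myl3, 0.837 for Myh6 with Myh7, 0.804 for Myh6 with Myl2, 0.744 for Myh7 with Myl2, 0.617 for Myh7 with Myl3 and 0.599 for Myh6 with Myl3. The Myh7 share ran weakly with Myh6 (0.190), Myl2 (0.279) and Myl3 (0.321) and against Mhrt (-0.850).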

How the data were processed

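The authors deposited whole-number counts for 55401 Ensembl genes in 9 libraries, per the file headers, unscaled for depth or length. Per the labels' protocols, poly(A) RNA was sequenced in pairs on a NovaSeq instrument, and the protocol names an adipose type although the source is heart. The submitters' processing notes list StringTie 1.3.0, HISAT2 2.0, Bowtie 0.12.2 and the build mm8. The sources used here give neither the role of each tool nor the annotation nor any use of strand, so gene spans as counted are unknown, and the coordinates printed are those of the RefSeq sequences (GRCm38.p6). Symbols matched 55141 identifiers. No 2 libraries agreed within counting noise (chi-square over its degrees of freedom at least 62.1).

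Differences were tested with edgeR 4.0.16 (R 4.3.3; TMM, filterByExpr, robust quasi-likelihood F test, Benjamini-Hochberg adjustment over all genes tested), in 1 fit of 9 libraries per grouping and 1 of the 6 WA and WC libraries. An adjusted p under 0.05 was a call. The SE is the fitted difference divided by the root of F and so restates the test. Within-library ratios were compared by two-sided exact permutation tests. DESeq2 1.42.0, other scalings and filters, the other grouping as covariate and leaving out each library were alternatives, as was, added after seeing the data, a permutation inside the title letters for the Myh7 share. Only the edgeR fit of WA minus WC, with 9 and with 6 libraries, was run on simulated counts, and the outcome is not reported here. Replicate numbers follow accession order and pair nothing.

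The myosin genes, gene lists and tests were chosen with earlier results of these data known. Genes named were the 5 myosins, up to 4 called genes per list by p (otherwise the one of smallest p), the 3 most and least alike genes by Pearson's r among genes with a mean log2 CPM of at least 1 (prior count 2), and the intronic and antisense genes; the report gives part of them, and 1 alike gene is not reported here.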

Additional observations from a re-analysis of the deposited data

How the results depend on the processing

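Of the alternatives, library size as the only scaling reversed signs of the myosin genes most often, although most signs were kept. It moved the median gene by 0.65 in Ang II minus Ctrl, -0.34 in Kmo+Ang II minus Ang II, 0.31 in Kmo+Ang II minus Ctrl and -0.32 in WA minus WC. With it, Ang II minus Ctrl was 0.41 for Myh6, 0.0303 for Myh7, 0.27 for Myl2 and 0.62 for Myl3. Kmo+Ang II minus Ang II was -0.20 for Myh6, and Kmo+Ang II minus Ctrl was 0.21 for Myh6, 0.12 for Myh7, 0.16 for Myh7b and 0.30 for Myl3. Myh6 was -0.0566 in WA minus WC (-0.0567 with 6 libraries), 0.0183 in KKA minus WA and -0.0383 in KKA minus WC, and Myl3 in WA minus WC (6 libraries) lost its call at 0.93. This scaling called 11 genes in WA minus WC, 1 in KKA minus WA, 7 in KKA minus WC and 232 in the 6 libraries.

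DESeq2 called 8, 3 and 9 genes in the treatment comparisons in the order above, 514 in WA minus WC, 91 in KKA minus WA and 25 in KKA minus WC, and in the 6 libraries it also called Myh7 (0.76) and Myl2 (0.72). Without a low-count filter 5, 1 and 4 genes were called in WA minus WC, KKA minus WA and KKA minus WC. Fitting only the groups compared called 1 gene in Kmo+Ang II minus Ctrl and, in WA minus WC, 2409 genes with Myl3 at 1.25. Title letters as a covariate turned Myl3 in Ang II minus Ctrl to 0.39. The covariate fits for comparisons with Kmo+Ang II were not run, because KKA holds the same libraries. Within WC the Myh7 share differed by -0.45 points in Ang II minus Ctrl.

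Leaving out 1 library at a time gave 0 to 1 called genes in each treatment comparison, 0 to 1576 in WA minus WC and 0 to 1709 in KKA minus WA (both highest without Kmo+Ang II replicate 1), 0 to 7 in KKA minus WC and 459 (without Ang II replicate 2) to 2980 (without Ang II replicate 3) in the 6 libraries, where 1020, 1270 and 524 were called once Ctrl replicate 1, 2 or 3 was removed. In Ang II minus Ctrl, Myh7b ranged from -0.19 to 0.46 and Myl3 from -0.64 to 0.36. Kmo+Ang II minus Ang II ranged from -0.10 to 0.30 for Myh6, -0.63 to 0.0105 for Myh7b, -0.63 to 0.33 for Myl2 and -1.21 to 0.47 for Myl3. Kmo+Ang II minus Ctrl ranged from -0.31 to 0.059 for Myh6, -0.34 to 0.0466 for Myh7b and -1.27 to 0.29 for Myl3, and the Myh7 share from -1.09 to 0.18 points. KKA minus WA ranged from -0.32 to 0.0549 for Myh6 and -1.73 to -0.17 for Myl3. KKA minus WC ranged from -0.0922 to 0.30 for Myh6, -0.34 to 0.21 for Myh7b, -0.43 to 0.53 for Myl2 and -0.50 to 1.07 for Myl3. In the 6 libraries WA minus WC ranged from 0.61 to 0.94 for Myh7 and 1.12 to 1.56 for Myl3. The Myh7 share kept its sign in the other 5 comparisons under the alternatives run. The cause of these changes was not tested. Depth did not limit the 5 genes, but Mir208a rests on 8 to 97 counts. No paired analysis was possible because the labels give no replicate numbers.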
